A study of Mus musculus with 45 samples.

Results

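Glycolysis and hypoxia response genes were followed across 18 groups of macrophages sorted from mouse skeletal muscle. The set is a list of 34 genes written by name: carriers of glucose and lactate, the enzymes of glycolysis and their regulators, the oxygen-sensing machinery, and genes known to be induced when oxygen is short. A probe set assigned to a single gene symbol was found for 32 of them, out of 19752 genes in all, and Gpi1 and Eno1 were not analysed here. The fit kept 28 of the 32, those whose mean reached log2 7.57 (the median of all values) in at least 1 group, and the fit covered 11074 genes. Adm, Higd1a, P4ha2 and Plod2 were below that level in all 18 groups.

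Glycolysis splits glucose into pyruvate in the cytosol, and in cells that respire little the pyruvate is reduced to lactate and exported. The transcription factor HIF-1, made of the oxygen-regulated subunit encoded by Hif1a and a constant partner, raises many of these genes, and prolyl hydroxylases such as Egln1 and Egln3 mark the subunit for destruction while oxygen is present. Macrophages drawn into damaged tissue are known to rely on glycolysis, and inflammatory stimuli as well as low oxygen can stabilise HIF-1.

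All mice were male C57Bl6, and all cells were muscle macrophages gated as Ly6g-negative, CD11b-positive and F4-80-positive. Foxp3.DTR+ mice carry a diphtheria toxin (DT) receptor driven by Foxp3, so that DT removes regulatory T cells, and Foxp3.DTR- mice, which lack it, served as controls. The 8-week 24 h set was taken at day 7 after cardiotoxin, a muscle-damaging toxin, with 24 h of DT in the titles, and held 2 DTR+ and 4 DTR- arrays of MHCII+ cells and 3 and 3 of MHCII- cells. The 12-week 8 h set was also taken at day 7, with 8 h of DT and an added SiglecF-negative gate, and held 3 and 3 arrays of MHCII+ cells and 3 and 4 of MHCII- cells. At day 1 after cardiotoxin, with 24 h of DT, 8-week mice of each genotype gave 2 arrays per subset, and at day 4, 8-week DTR- mice gave 2 arrays per subset, both days with SiglecF-negative, CD45-positive and DAPI-negative gates. Uninjured 10-week DTR- mice (day 0) gave 2 arrays per subset. A last day 7 set, from 10-week mice, names no DT time in its titles and is called the untimed set here; it held 2 DTR+ and 2 DTR- arrays of MHCII+ cells only. Whether DT was given at day 0, at day 4 or in the untimed set, and whether replicates were separate animals, is not stated, so p-values measure the spread between these arrays, which may be technical.

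The marker label writes MHCII- for every injured group, also those titled MHCII+, so the titles were checked against expression. For H2-Ab1, an MHC class II chain, 24 arrays with MHCII+ in the title ranged from 13.67 to 14.01 (log2 intensity), and the 21 others from 7.81 to 12.45. The macrophage genes Adgre1 (12.40 to 13.24), Csf1r (12.35 to 13.35) and Cd68 (13.14 to 13.53) were high in all 45 arrays. Arrays of 1 group correlated at 0.933 to 0.997 over the 11074 tested genes, and median intensities per array ran from 174.7 to 203.7 on the linear scale. The number of arrays per group, 2 to 4, limits the precision. Levels below are log2 intensities of 1 probe set per gene, so they compare samples and not genes.

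The promoters of 5 members are shown for the short cores that HIF is known to bind. They were picked by role and by the size of their rise in the untimed set. Each sequence is the 250 bases before the RefSeq transcription start on mouse build GRCm38.p6, 5′ to 3′ on the gene's strand, with the cores ACGTG and GCGTG in capitals on either strand (so also as CACGT and CACGC). Slc2a1 lies on the plus strand (chr4:119108495-119108744), Pgk1 on the plus strand (chrX:106186850-106187099), Egln3 on the minus strand (chr12:54203875-54204124), Bnip3 on the minus strand (chr7:138909507-138909756) and Ero1a on the minus strand (chr14:45318573-45318822).
Slc2a1: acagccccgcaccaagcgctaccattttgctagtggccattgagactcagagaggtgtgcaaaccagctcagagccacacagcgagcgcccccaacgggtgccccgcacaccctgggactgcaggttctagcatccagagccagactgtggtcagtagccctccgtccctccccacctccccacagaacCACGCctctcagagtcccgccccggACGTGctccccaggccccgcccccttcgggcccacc
Pgk1: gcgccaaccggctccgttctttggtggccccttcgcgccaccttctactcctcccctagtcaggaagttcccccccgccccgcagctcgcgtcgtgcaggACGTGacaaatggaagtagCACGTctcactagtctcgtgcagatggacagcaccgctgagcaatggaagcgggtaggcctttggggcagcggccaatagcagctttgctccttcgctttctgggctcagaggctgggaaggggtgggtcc
Egln3: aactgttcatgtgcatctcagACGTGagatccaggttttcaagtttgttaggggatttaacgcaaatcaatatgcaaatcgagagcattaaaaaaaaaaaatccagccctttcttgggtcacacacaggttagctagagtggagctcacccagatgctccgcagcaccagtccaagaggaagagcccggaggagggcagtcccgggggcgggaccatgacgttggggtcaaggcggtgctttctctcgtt
Bnip3: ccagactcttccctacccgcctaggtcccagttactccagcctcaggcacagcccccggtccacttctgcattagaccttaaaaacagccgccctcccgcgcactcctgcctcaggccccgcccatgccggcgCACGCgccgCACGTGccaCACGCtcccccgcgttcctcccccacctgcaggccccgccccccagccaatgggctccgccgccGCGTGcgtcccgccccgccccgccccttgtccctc
Ero1a: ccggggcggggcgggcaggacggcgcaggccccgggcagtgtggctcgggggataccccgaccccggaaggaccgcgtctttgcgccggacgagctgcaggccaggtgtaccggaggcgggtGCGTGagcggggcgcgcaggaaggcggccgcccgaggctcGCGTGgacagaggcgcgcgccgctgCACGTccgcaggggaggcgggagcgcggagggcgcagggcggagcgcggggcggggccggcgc
Slc2a1 has 2 cores, Pgk1 has 2, Egln3 has 1, Bnip3 has 5 (of which 2 overlap) and Ero1a has 3. The RefSeq table held promoters of 31 of the 34 members. At least 1 core stood in 73.7% of the 38 promoters of tested members (28 of them), in 55.1% of the 11289 promoters of tested genes and in 38.6% of all 32851 promoters. For ACGTG alone the shares were 55.3%, 21.9% and 16.6%, and for GCGTG alone 42.1%, 43.8% and 28.2%. The 38 promoters belong to 26 genes. The members were listed by name as glycolysis and hypoxia genes, so a high share of HIF cores was given in advance. It is therefore no result of these data. Such matches describe letters in a window and do not show binding.

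Across the 18 groups, the untimed DTR+ MHCII+ macrophages had the highest group mean for 21 of the 28 tested members, against 8.81% of all tested genes. Both arrays of that group lay above all 43 other arrays for 19 members, against 3.54% of tested genes. With that group left out, a day 1 group was highest for 19 of 28 members, against 27.0% of tested genes. Among genes whose means reached the filter level in all 18 groups, the untimed DTR- MHCII+ mean was the lowest for 8 members (Slc2a1, Pfkp, Aldoa, Tpi1, Pgk1, Pgam1, Ndrg1 and Hilpda), against 4.41% of such genes. The 28 members averaged 11.02 and 11.25 in the untimed DTR+ arrays, 9.83 and 9.91 in the untimed DTR- arrays, 10.38 to 10.64 in the 8 day 1 arrays and 9.74 to 10.47 in the other 33.

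**Figure D1:**
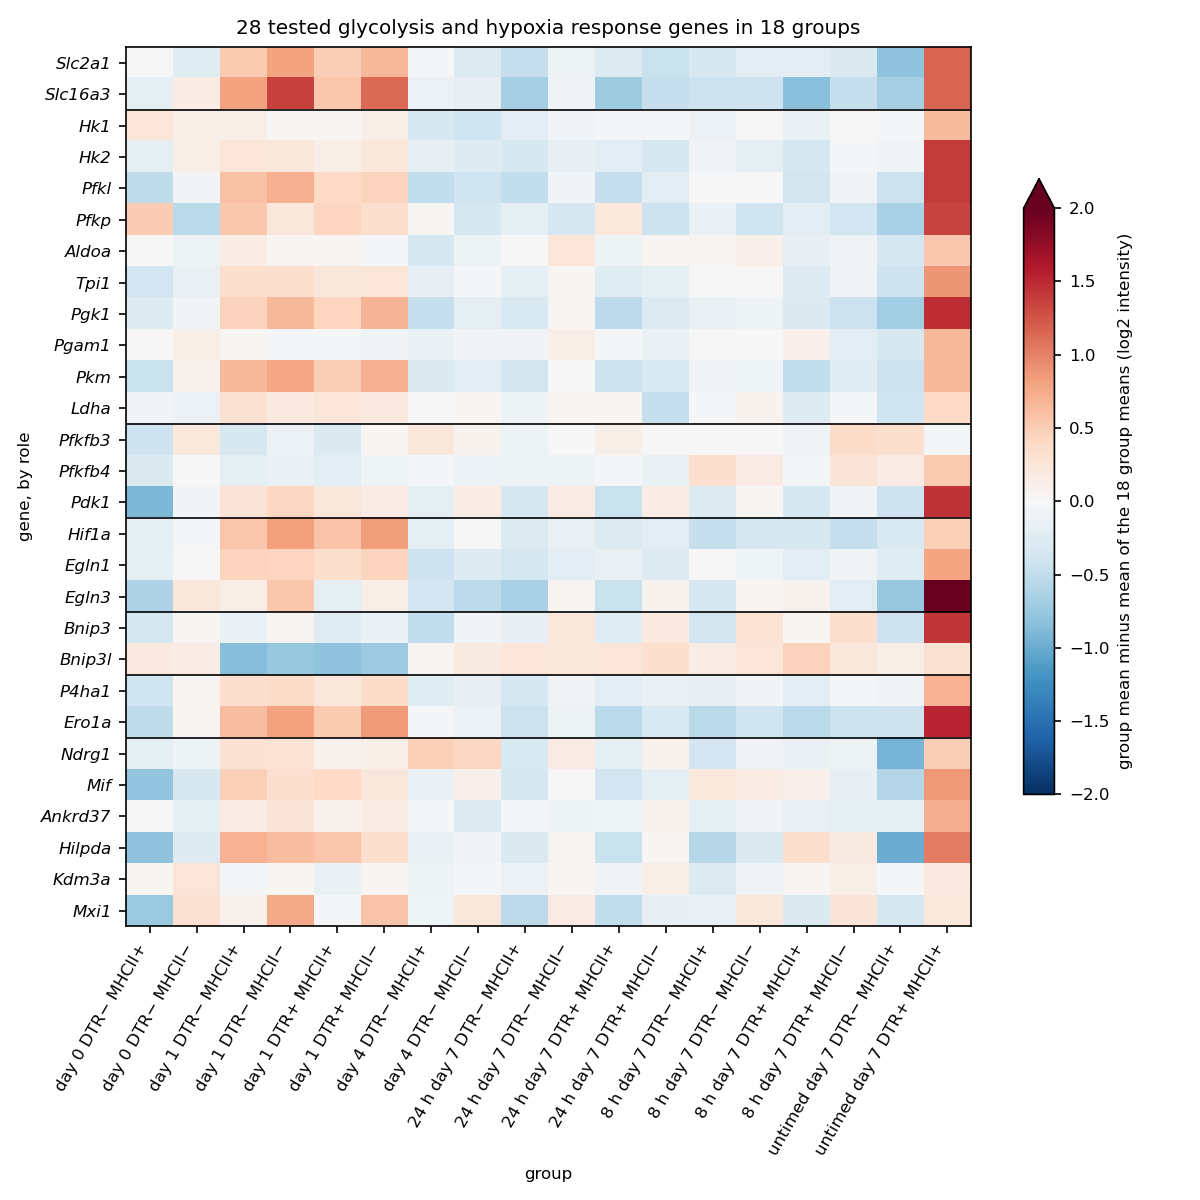
Group means of the 28 tested members (rows, by role) in the 18 groups (columns), as log2 intensity minus the mean of the 18 group means, with the colour capped at 2 above and below. The untimed day 7 DTR+ MHCII+ column is the highest for 21 of the 28 rows, and the day 1 columns form the next band.

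The orders of single members followed a few shapes. Egln3, a prolyl hydroxylase that is itself induced by HIF, averaged 10.13 in untimed DTR+ cells, 7.86 in day 1 DTR- MHCII- cells, the next in order, and 6.55 in untimed DTR- cells. Only the first 2 of these reached the level of 7.57, and the SD within groups averaged 0.39, so the order of the other groups is not resolved. Bnip3, which promotes removal of mitochondria, ran from 11.27 in untimed DTR+ cells to 10.17 in 8 h DTR+ MHCII- cells and 9.35 in day 4 MHCII+ cells. Hif1a was highest at day 1, at 12.70 and 12.68 in DTR+ and DTR- MHCII- cells, a gap smaller than its mean SD within groups of 0.21. Slc16a3, the lactate exporter MCT4, was also highest in day 1 DTR- MHCII- cells, at 11.58, with untimed DTR+ cells at 11.38, within its mean SD of 0.35. Bnip3l, a relative of Bnip3, had the reverse shape: its lowest mean was 11.75 in day 1 DTR- MHCII+ cells, and its highest 13.06 in 8 h DTR+ MHCII+ cells.

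In the untimed set, which asks how MHCII+ macrophages of DTR+ and DTR- mice differ at day 7, 23 of the 28 tested members were higher in DTR+ cells and none was lower (limma, Benjamini-Hochberg adjusted p under 0.05), against 5.32% of all tested genes called higher. The median log2 change of the 28 members was 1.19, beside -0.01 over all tested genes, and 27 of the 28 had both DTR+ arrays above both DTR- arrays, against 33.3% of tested genes. By role, 2 of 2 transporters, 10 of 10 glycolytic enzymes, 1 of 3 flux regulators, 3 of 3 genes of HIF and oxygen sensing, 1 of 2 mitochondrial genes, 2 of 2 collagen and disulfide enzymes and 4 of 6 other hypoxia targets rose. In bulk samples such as these, more cells of a type and more RNA per cell cannot be told apart.

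Among the transporters, Slc2a1, the glucose carrier GLUT1, stood at 12.60 and 12.50 in the DTR+ arrays and at 10.47 and 10.71 in the DTR- arrays. It rose by 1.96 ± 0.34 (SE; limma adjusted p = 7.22e-05). Slc16a3 stood at 11.48 and 11.28 against 9.49 and 9.59, a change of 1.84 ± 0.37 (limma adjusted p = 5.20e-04). Both carriers had DTR+ and DTR- arrays well apart.

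Each of the 10 tested glycolytic enzymes rose. Pgk1, phosphoglycerate kinase, which makes ATP in the pathway, stood at 12.89 and 12.58 in DTR+ and at 10.48 and 10.67 in DTR- arrays, 4.48-fold higher (log2 2.16 ± 0.23, limma adjusted p = 1.43e-08). Pfkp, the platelet-type phosphofructokinase of the committed step, stood at 11.34 and 11.13 against 9.17 and 9.29 (2.00 ± 0.20, limma adjusted p = 2.10e-09), and its liver-type partner Pfkl at 10.82 and 10.53 against 8.73 and 8.96 (1.83 ± 0.24, limma adjusted p = 9.75e-07). Hk2, an inducible hexokinase, stood at 10.69 and 10.24 against 8.98 and 9.06, a change of 1.45 ± 0.24. The groups did not overlap for any of these enzymes, and DTR+ replicate 1 was the higher of the pair. Tpi1 (triose phosphate isomerase) rose by 1.28 ± 0.17, Pkm (pyruvate kinase) by 1.09 ± 0.24, Pgam1 (phosphoglycerate mutase) by 0.97 ± 0.15, Aldoa (aldolase) by 0.89 ± 0.14 and Hk1 (the constitutive hexokinase) by 0.66 ± 0.15. Ldha, which makes lactate, stood at 13.23 and 13.15 against 12.36 and 12.42. Its change of 0.80 ± 0.23 had a limma adjusted p of 0.0189, which lay between 0.0710 and 0.156 when any 1 of the 4 arrays was left out, so its call rested on all of them.

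The flux regulators parted. Pdk1, the kinase that shuts pyruvate out of the citric acid cycle, stood at 9.67 and 9.29 in DTR+ and 7.48 and 7.75 in DTR- arrays and rose by 1.86 ± 0.21 (limma adjusted p = 6.68e-08). Pfkfb3, which makes the activator of phosphofructokinase, was the 1 member with both DTR+ arrays below both DTR- arrays, at 10.20 and 10.03 against 10.50 and 10.41. Its change of -0.34 ± 0.19 did not pass (limma adjusted p = 0.314), though it was called lower with array weights or in a fit on these 4 arrays alone, nor did that of Pfkfb4, a bifunctional relative, at 0.36 (adjusted p = 0.276).

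Of the oxygen-sensing genes, Egln3 changed the most of all 28 members: 10.39 and 9.88 in DTR+ arrays against 6.38 and 6.71 in DTR- arrays, 12.0-fold (log2 3.59 ± 0.40, limma adjusted p = 3.34e-08). The DTR- values lie below the filter level of 7.57, so the size of the fold is uncertain. Egln1, the main HIF prolyl hydroxylase, rose by 1.03 ± 0.16 (limma adjusted p = 2.05e-05). Hif1a stood at 12.46 and 12.21 against 11.54 and 11.56, a change of 0.78 ± 0.21 (limma adjusted p = 0.0118), and lost its call in 3 of the 4 fits that left out 1 array, with adjusted p up to 0.187.

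In the mitochondrial pair, Bnip3 stood at 11.33 and 11.21 in DTR+ and 9.41 and 9.42 in DTR- arrays and rose by 1.86 ± 0.17 (limma adjusted p = 6.09e-10), while Bnip3l stood at 12.92 and 12.89 against 12.71 and 12.76 and did not pass (0.17 ± 0.14, adjusted p = 0.531). Ero1a, which makes disulfide bonds in the endoplasmic reticulum, stood at 11.96 and 11.45 against 9.80 and 9.74 and rose by 1.94 ± 0.27 (limma adjusted p = 2.18e-06). P4ha1, a collagen prolyl hydroxylase subunit, rose by 0.76 ± 0.19 (limma adjusted p = 0.00548), a call lost in 2 of the 4 leave-one-out fits. The Bnip3 and Ero1a arrays of the 2 genotypes were well apart.

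Among the other hypoxia targets, Hilpda, which coats lipid droplets and slows their breakdown, stood at 10.30 and 9.80 in DTR+ and at 7.93 and 8.14 in DTR- arrays, 4.04-fold (log2 2.01 ± 0.25, limma adjusted p = 4.16e-07). Mif, a cytokine, rose by 1.44 ± 0.23 and Ankrd37 by 0.90 ± 0.15. The DTR- values of Ankrd37, 7.33 and 7.31, lie below the filter level of 7.57, so the size of its rise is uncertain. Ndrg1, a stress-induced gene, stood at 10.38 and 10.37 against 8.90 and 9.02 and rose by 1.42 ± 0.14 (limma adjusted p = 1.77e-09). The untimed DTR- arrays were the lowest for Ndrg1, and day 4 DTR- MHCII+ cells averaged 10.36, within 0.02 of untimed DTR+ cells. Mxi1, a Myc antagonist, was 0.54 ± 0.20 higher (adjusted p = 0.0819) and Kdm3a, a histone demethylase, 0.22 higher (adjusted p = 0.296), and neither passed. Untimed DTR+ cells were also set against the highest of the 6 DTR- MHCII+ group means of each member. Their largest margins were 2.69 for Egln3, 1.57 for Bnip3, 1.19 for Pdk1, 1.15 for Hk2 and 1.01 for Pgk1. The smallest positive margins were 0.01 for Pkm, 0.02 for Ndrg1, 0.06 for Bnip3l, 0.10 for Ldha and 0.12 for Mxi1. Each of these was below the gene's mean SD within groups. Pfkfb3 and Hif1a lay below that highest mean.

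Leaving out DTR+ replicate 1 left 19 of the 23 calls and leaving out replicate 2 left 22; for the DTR- arrays, dropping replicate 1 gave 21 and dropping replicate 2 gave 20, and 19 members passed in each of these fits. Hk1 lost its call without DTR+ replicate 1 (adjusted p = 0.0872). In a fit with no filter, Higd1a (0.39, adjusted p = 0.261), P4ha2 (0.33, adjusted p = 0.195), Adm (0.20, adjusted p = 0.768) and Plod2 (-0.26, adjusted p = 0.457) did not pass. Further probe sets of a gene changed alike for Pgk1 (2.10), Pgam1 (1.02) and Mif (1.56 and 1.50), while the other probe set of Bnip3 gave 1.30, and transcripts of near-identical copies may bind the same probes.

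**Figure D2:**
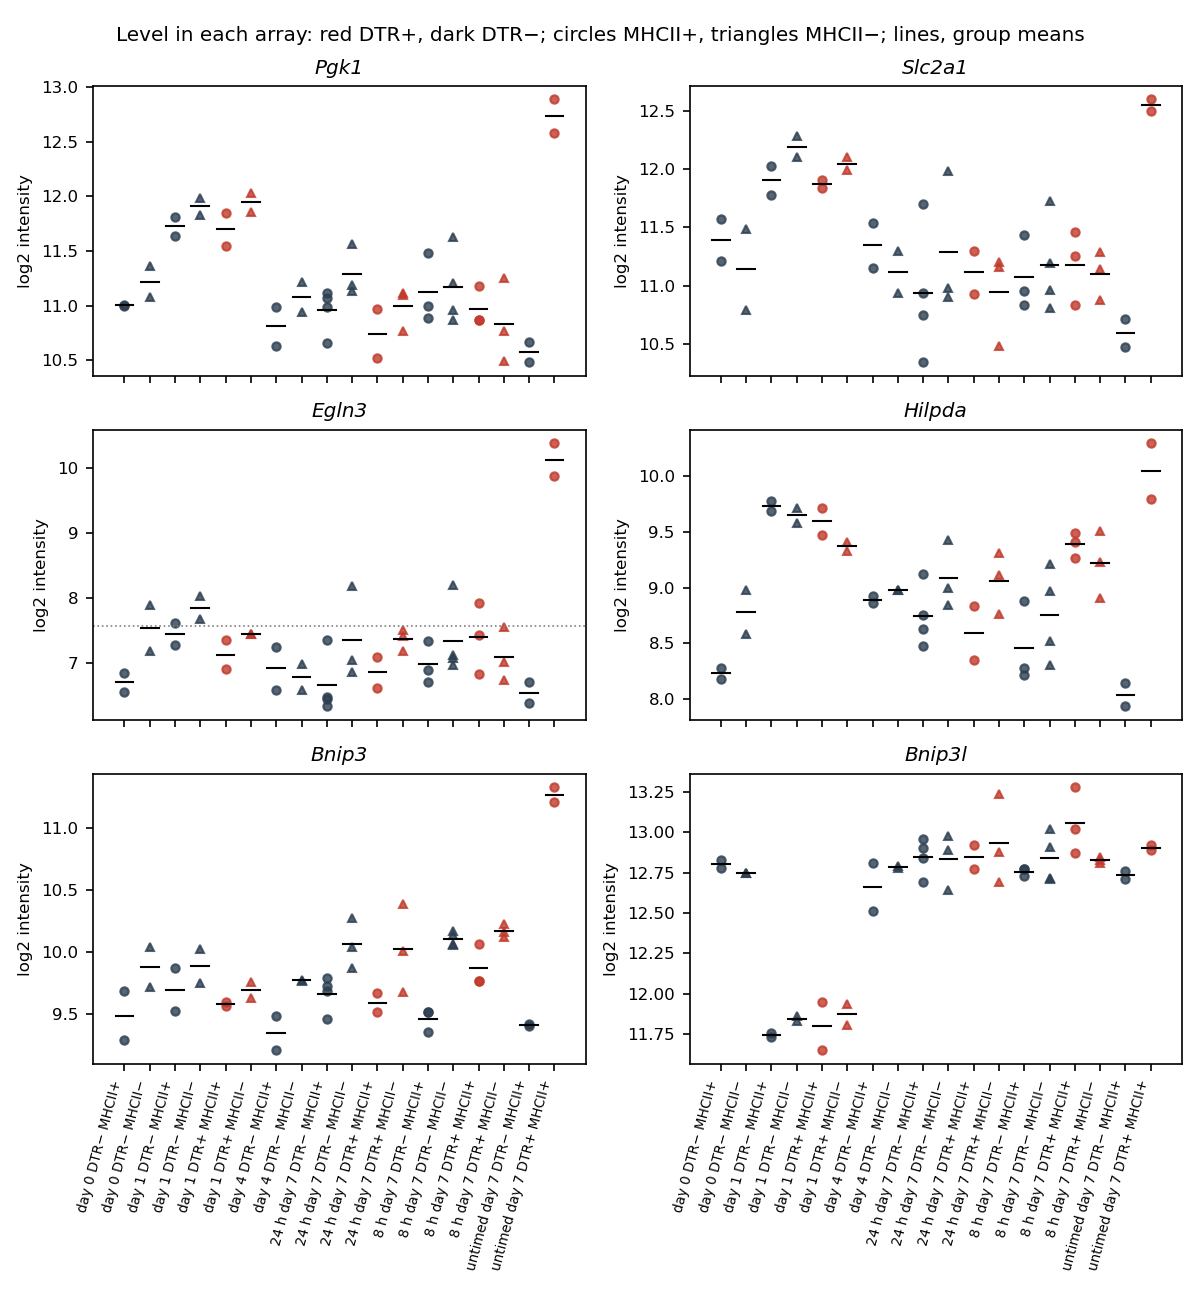
Log2 intensity of Pgk1, Slc2a1, Egln3, Hilpda, Bnip3 and Bnip3l on each of the 45 arrays by group, with DTR+ in red, DTR- in dark, MHCII+ as circles, MHCII- as triangles, group means as lines and the filter level of 7.57 dotted for Egln3. The 2 untimed DTR+ arrays lie above all others for Pgk1, Slc2a1, Egln3, Hilpda and Bnip3, and Bnip3l is lowest at day 1.

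Neighbouring pathways were read from lists of further genes, set beside 5.32% of all 11074 tested genes called higher and 687 called lower. Of 14 tested isoforms and transporters of glycolysis, 7 rose and 1 fell, led by Aldoc (1.84 ± 0.23) and Pgm1 (1.82 ± 0.19), while the pyruvate and lactate carrier Slc16a7 changed by -1.02 ± 0.15. Of 17 further hypoxia targets, 8 rose and none fell, led by Vegfa, the angiogenic growth factor (2.56 ± 0.57), and Bhlhe40 (1.56 ± 0.27). Of 9 other HIF pathway genes, Cited2, a competitor of HIF for its coactivator, fell by 0.68 ± 0.12 and none rose. Of 6 genes of gluconeogenesis and glycogen, 2 rose: Gys1, glycogen synthase (1.51 ± 0.17), and Pygl, glycogen phosphorylase (0.90 ± 0.16). Of 7 pentose phosphate genes, 1 rose (Tkt, transketolase, 0.65 ± 0.19), and of 18 genes of pyruvate dehydrogenase and the citric acid cycle, 4 rose, led by Mdh2 (0.76 ± 0.14) and Suclg1 (0.70 ± 0.18). The median log2 change was 0.37 for the isoforms and 0.46 for the further targets.

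Markers of other cells moved with genotype in the untimed set. The 9 skeletal muscle genes averaged 8.21 to 8.46 in DTR+ and 8.96 to 9.17 in DTR- arrays. Of these 9, 7 passed as lower, against 687 of all 11074 tested genes. The T cell list averaged 6.53 to 6.57 against 7.12 to 7.31 (Cd28 at -3.55), the dendritic cell list 7.88 to 8.00 against 7.13 to 7.18 (Clec9a at 3.19), the monocyte list 9.96 to 10.27 against 9.26 to 9.26 (Plac8 at 1.61) and the neutrophil list 6.96 to 7.13 against 6.60 to 6.74 (Mmp8 at 1.83). Each of these 4 lists had 1 gene past the threshold, and the eosinophil gene Siglecf (1.00) and the endothelial gene Pecam1 (1.63) also passed. Of the tested T cell genes only Cd28 passed, while Cd3e overlapped between the genotypes. A fall of T cell markers beyond Cd28 was therefore not shown. The macrophage list averaged 12.55 to 12.61 against 12.75 to 12.75, with Mertk (-0.47) and Adgre1 (-0.35) lower, and the MHC class II list 13.84 to 13.85 against 13.84 to 13.86. Their part in the members' difference was not tested.

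The same genotype comparison with a named DT time gave 1 member call in all. In the 24 h set, MHCII+ cells gave 0 members (limma, 0.0542% of tested genes called and 716 genes at an unadjusted p under 0.05). Member changes ran from -0.21 (Pgk1) to 0.40 (Pfkp), and the smallest p belonged to Pfkp (0.40 ± 0.17, adjusted p = 0.762), Hk1 (0.18, adjusted p = 0.848) and Pfkfb3 (0.23, adjusted p = 0.854). Pgk1 stood at 10.97 and 10.52 in DTR+ and at 11.12, 10.99, 10.66 and 11.07 in DTR- arrays, which overlap. In 24 h MHCII- cells 0 members passed (limma, 0.00903% called and 717 at an unadjusted p under 0.05), with changes from -0.51 (Ldha) to 0.18 (Ankrd37). The smallest p belonged to Ldha (adjusted p = 0.718), Pgam1 (-0.27, adjusted p = 0.746) and Mxi1 (-0.33, adjusted p = 0.756). Ldha stood at 12.71, 12.74 and 11.53 in DTR+ and at 12.73, 12.75 and 13.03 in DTR- arrays, so that DTR+ replicate 3 was far below the rest.

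In the 8 h set, Hilpda was the 1 member called in MHCII+ cells (0.488% of tested genes were called). It stood at 9.49, 9.27 and 9.41 in DTR+ and at 8.21, 8.28 and 8.88 in DTR- arrays, with no overlap, and rose by 0.93 ± 0.21 (limma adjusted p = 0.0305). Dropping replicate 1 or 4 of the DTR+ arrays raised the adjusted p to 0.148 or 0.0866, and dropping replicate 1 or 2 of the DTR- arrays raised it to 0.256 or 0.194, so the call was lost in each case. Dropping replicate 3 of the DTR+ arrays gave 2 members. The T cell list averaged 7.02 to 9.15 in these DTR+ and 6.81 to 6.96 in these DTR- arrays, and its part was not tested. Kdm3a (0.31, adjusted p = 0.140) and Bnip3 (0.40, adjusted p = 0.164) came next, and the lowest change was -0.43 for Pkm. In 8 h MHCII- cells 0 members passed (limma, 0.0181% called and 486 at an unadjusted p under 0.05), with changes from -0.33 (Pgk1) to 0.47 (Hilpda), and the smallest p belonged to Pfkfb3 (0.38), Hilpda and Kdm3a (0.18), each at an adjusted p of 0.998. Neither set gave a member whose genotype change differed between MHCII+ and MHCII- cells (limma, 0.0% called in each, with 856 genes at an unadjusted p under 0.05 at 8 h and 1012 at 24 h).

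At day 1 after injury, 0 members passed between genotypes in MHCII+ cells (limma, 0.0% called and 25 genes at an unadjusted p under 0.05) and 0 in MHCII- cells (limma, 0.0% called and 154). The shared spread is wider than that of the day 1 arrays, so this test was strict. In fits on the compared arrays alone, 308 and 1486 genes had an unadjusted p under 0.05, and 0 members passed in each. The changes ran from -0.32 (Egln3) to 0.05 in MHCII+ cells and from -0.41 (Egln3) to 0.15 (Pfkfb3) in MHCII- cells. The smallest p belonged to Ndrg1 (-0.22), Kdm3a (-0.10) and Pfkl (-0.20) in MHCII+ cells, and to Pdk1 (-0.27), Ndrg1 (-0.16) and Bnip3 (-0.20) in MHCII- cells. Pgk1 stood at 11.55 and 11.85 in DTR+ and at 11.81 and 11.64 in DTR- MHCII+ arrays, which overlap.

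**Figure D3:**
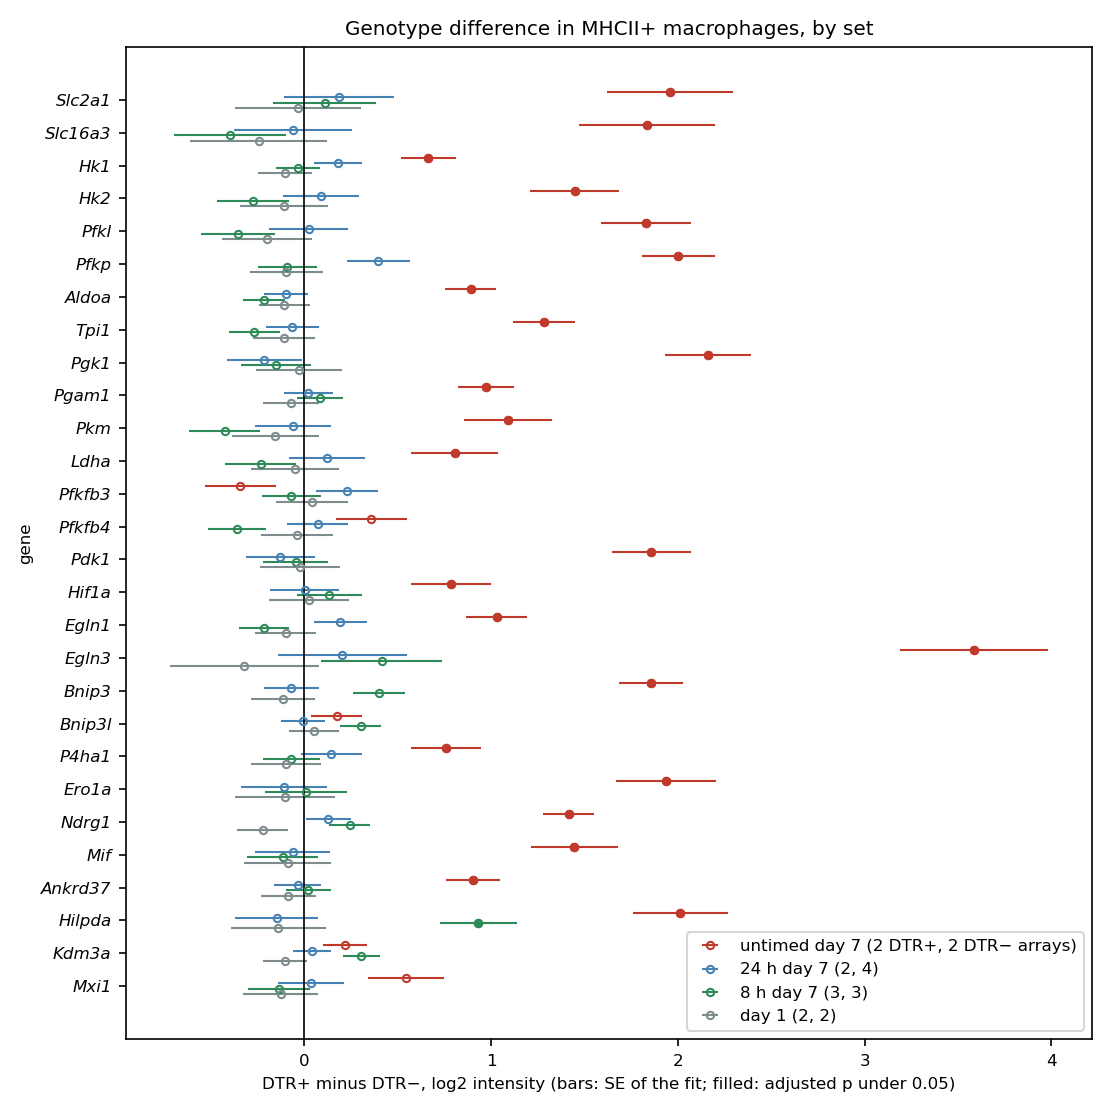
DTR+ minus DTR- log2 change with its SE for each tested member in the 4 sets of MHCII+ cells (24 h, 8 h, day 1 and untimed), filled where the limma adjusted p is under 0.05. The untimed changes lie mostly above 1, while the other sets lie near 0, with Hilpda at 8 h (0.93) the 1 filled point among them.

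Whether the untimed change exceeded that of the other sets was tested as a difference of differences in MHCII+ cells, a comparison chosen after seeing the data. It was larger than at 24 h for 19 members (2.64% of tested genes called higher), than at 8 h for 22 members (4.13%) and than at day 1 for 20 members (2.31%), and smaller for none. These 3 tests share the untimed arrays. Leaving out 1 array gave 14 to 19, 17 to 22 and 16 to 20 members, and 14, 17 and 15 members passed in every such fit. The excess of Egln3 was 3.38 ± 0.53 over 24 h, 3.17 ± 0.51 over 8 h and 3.91 ± 0.56 over day 1, while Egln3 was below the filter level of 7.57 in every group mean used except untimed DTR+, so the size of its excess is uncertain. That of Pgk1 was 2.38 ± 0.31, 2.31 ± 0.30 and 2.19 ± 0.33. For Hilpda it was 2.16 ± 0.34 over 24 h and 2.15 ± 0.36 over day 1, but 1.08 over 8 h, the set in which it had passed. Age and gate differ between these sets as well as the DT label, and these cannot be told apart.

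Time after injury was followed in DTR- cells. How often groups did not overlap over all tested genes was not counted in the time and subset comparisons. In the untimed set 33.3% of tested genes had both DTR+ arrays above both DTR- arrays. From day 0 to day 1, 14 members rose and 1 fell in MHCII+ cells (18.6% of tested genes called higher and 17.0% lower), with a median change of 0.57 over the members and -0.01 over all tested genes. In MHCII- cells 13 rose and 1 fell (9.4% called higher and 16.2% lower), with medians of 0.44 and -0.03. Both subsets called Ero1a, Hif1a, Hilpda, Mif, Ndrg1, Pfkl, Pgk1, Pkm, Slc16a3 and Tpi1 as higher, 71.4% of the 14 and 76.9% of the 13. Day 0 mice were older, at 10 weeks against 8. They carried none of the SiglecF, CD45 and DAPI gates named for day 1, no DT label and no injury, and these cannot be told apart.

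The largest rises in MHCII+ cells were those of Hilpda (1.50 ± 0.25, limma adjusted p = 2.81e-05), Mif (1.27 ± 0.23), Pdk1 (1.15 ± 0.21), Ero1a (1.13 ± 0.27), Pkm (1.10 ± 0.24), Pfkl (1.09 ± 0.24), Slc16a3 (0.99 ± 0.37) and Mxi1 (0.83 ± 0.20). Hilpda stood at 8.18 and 8.28 at day 0 and at 9.78 and 9.69 at day 1, and Ero1a at 9.75 and 9.61 and then 10.90 and 10.72. Pgk1 went from 11.01 and 11.00 to 11.81 and 11.64 (0.72 ± 0.23, limma adjusted p = 0.0145), and Hif1a from 11.68 and 11.64 to 12.58 and 12.24. None of these overlapped between the days. Several members did not pass: Slc2a1 (11.21 and 11.57, then 12.03 and 11.78, adjusted p = 0.242), Egln3 (6.84 and 6.56, then 7.62 and 7.27, adjusted p = 0.142), Ldha (12.84 and 12.63, then 13.14 and 13.05), Hk2 (8.87 and 8.91, then 9.31 and 9.33), Aldoa (12.58 and 12.58, then 12.74 and 12.69), Bnip3 (9.69 and 9.29, then 9.87 and 9.53) and Pfkfb3 (9.79 and 9.65, then 9.86 and 9.78). Of these only Bnip3 and Pfkfb3 overlapped between the days. Adm, which encodes a vasodilator peptide, was below the filter, at 6.89 and 6.87 and then 6.47 and 6.54.

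In MHCII- cells the carriers led. Slc16a3 stood at 10.29 and 10.44 at day 0 and at 11.69 and 11.47 at day 1 (1.21 ± 0.37, limma adjusted p = 0.0128), and Slc2a1 at 10.79 and 11.49 and then 12.28 and 12.10 (1.06 ± 0.34, limma adjusted p = 0.0189). Hilpda (0.87), Hif1a (0.86), Pfkp (0.78), Ero1a (0.78), Pfkl (0.76) and Pgk1 (0.69) followed. Pgk1 stood at 11.08 and 11.36 and then 11.99 and 11.83, Hif1a at 11.53 and 12.09 and then 12.81 and 12.54, Ero1a at 10.08 and 10.36 and then 11.05 and 10.94, and Hilpda at 8.58 and 8.98 and then 9.72 and 9.58. The days did not overlap for these, though the day 0 replicates of Slc2a1 and Hif1a were well apart. Egln3 (7.89 and 7.18, then 8.03 and 7.68), Bnip3 (10.04 and 9.72, then 10.03 and 9.75) and Hk2 (9.08 and 9.32, then 9.34 and 9.26) overlapped and did not pass. Ldha (12.61 and 12.74, then 13.02 and 12.94), Aldoa (12.44 and 12.51, then 12.67 and 12.60) and Pfkfb3 (10.30 and 10.40, then 10.05 and 9.99) did not overlap and did not pass either. Adm stood at 7.20 and 7.18 and then 6.45 and 6.54, all below the filter, and in the fit with no filter it was called lower (-0.70, limma adjusted p = 0.00113).

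Bnip3l was the 1 member that fell at day 1 in both subsets, from 12.78 and 12.83 to 11.73 and 11.76 in MHCII+ cells (-1.06 ± 0.14, limma adjusted p = 3.50e-07) and from 12.75 and 12.75 to 11.86 and 11.83 in MHCII- cells (-0.90 ± 0.14). At day 4 it was back at 12.81 and 12.51 in MHCII+ cells and 12.79 and 12.78 in MHCII- cells. The day 1 DTR+ arrays, at 11.65 and 11.95 in MHCII+ and 11.81 and 11.94 in MHCII- cells, were as low as the DTR- ones.

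The MHCII+ count of 15 was 10 to 14 with 1 array left out, and 9 members passed in each such fit. The MHCII- count of 14 rested on its arrays: it was 2 without day 0 replicate 1, 11 without day 0 replicate 2, 3 without day 1 replicate 1 and 6 without day 1 replicate 2, and Bnip3l alone passed in all. No member's change differed between the subsets (limma, 4.66% of tested genes called and 1963 at an unadjusted p under 0.05), Pfkp coming nearest (-0.75, adjusted p = 0.127). Of the members that rose at day 1, 13 of 14 in MHCII+ cells (92.9%) and 13 of 13 in MHCII- cells were also among the 23 of the untimed set (56.5% of it in each case). Since 82.1% of all 28 tested members were among those 23, a large overlap was given in advance.

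Monocyte genes and other markers moved with the same days. The 3 measured monocyte markers averaged 9.49 to 9.90 at day 0, 11.91 to 12.16 at day 1 and 10.63 to 11.13 at day 4 in MHCII+ cells, and 9.55 to 9.96, 12.43 to 12.59 and 10.81 to 11.55 in MHCII- cells. The muscle list averaged 7.83 to 8.29, 7.55 to 7.55 and 8.00 to 8.14 in MHCII+ cells, and the dendritic cell list 8.21 to 8.56, 7.52 to 7.54 and 7.95 to 8.24. The macrophage list there averaged 12.16 to 12.31 at day 0 and 12.52 to 12.59 at day 1. For MHCII- cells the MHC class II list averaged 10.96 to 11.61, 8.64 to 8.76 and 10.54 to 10.65 on the 3 days. Their muscle list averaged 8.16 to 8.32, 7.45 to 7.60 and 8.07 to 8.10. In MHCII- cells the neutrophil list stood at 7.56 to 10.49 at day 0, with the 2 arrays far apart, and at 7.11 to 7.19 at day 1. Of its 8 tested genes, 7 passed as lower at day 1, against 16.2% of all tested genes. Their part in the members' change was not tested.

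Other genes of glucose metabolism moved both ways at day 1. Over all tested genes, 18.6% were called higher and 17.0% lower in MHCII+ cells, and 9.4% and 16.2% in MHCII- cells. The list counts below were not tested against these shares. Among 14 isoforms and transporters, 2 rose and 4 fell in each subset. In MHCII+ cells Slc16a1, the lactate carrier MCT1, rose by 1.26 ± 0.21 and Pfkfb2 by 0.60 ± 0.13, while Pdk2, another kinase of pyruvate dehydrogenase, fell by 1.56 ± 0.17 and Slc2a6, a glucose carrier, by 0.98 ± 0.24. In MHCII- cells Slc16a1 rose by 0.96 ± 0.21, and Pdk2 fell by 1.33 ± 0.17 and Slc2a3, the carrier GLUT3, by 1.06 ± 0.18. Pdk1 and Pdk2 thus moved in opposite directions in MHCII+ cells. Epas1, which encodes HIF-2 alpha, fell by 1.08 ± 0.17 in MHCII+ and by 0.96 ± 0.17 in MHCII- cells, where Hif1a rose. Of 17 further hypoxia targets 5 rose and 4 fell in MHCII+ cells (Vegfa 1.45 ± 0.57, Selenbp1 -1.40 ± 0.31) and 2 rose and 3 fell in MHCII- cells (Nfil3 0.91 ± 0.28, Selenbp1 -2.19 ± 0.31). Of 18 genes of pyruvate dehydrogenase and the citric acid cycle, 6 rose and 2 fell in MHCII+ cells (Pdha1 1.21 ± 0.22, Mpc1 -1.25 ± 0.20) and 2 rose and 1 fell in MHCII- cells.

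From day 1 to day 4 more members fell than rose. In MHCII+ cells 10 fell and 2 rose (7.61% of tested genes called lower and 7.77% higher), with a median of -0.48 over the members and -0.01 over all tested genes. In MHCII- cells 13 fell and 1 rose (7.31% lower and 16.9% higher), with medians of -0.50 and 0.05. These comparisons share the day 1 arrays with those against day 0, so that a high day 1 array enters both. Day 1 carries a DT label and day 4 none, and day and DT cannot be told apart. Falls in both subsets were called for Egln1, Hif1a, Hk1, P4ha1, Pfkl, Pgk1 and Pkm, 70.0% of the 10 and 53.8% of the 13.

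In MHCII+ cells Pfkl fell by 1.08 ± 0.24 (limma adjusted p = 0.00195), Pkm by 0.94, Pgk1 by 0.92 ± 0.23, Egln1 by 0.85, Hilpda by 0.85, Hif1a by 0.76, P4ha1 by 0.58 and Tpi1 by 0.50. At day 4 Pgk1 stood at 10.63 and 10.99, Hif1a at 11.56 and 11.75 and Hilpda at 8.92 and 8.86, all below both day 1 arrays. Aldoa, at 12.15 and 12.34, fell by 0.47. Pfkfb3, at 10.21 and 10.53, rose by 0.55 ± 0.19 (limma adjusted p = 0.0488), and Bnip3l rose by 0.92 ± 0.14. Day 4 values of the fixed genes that did not pass were 11.15 and 11.54 for Slc2a1, 8.69 and 9.13 for Hk2, 12.75 and 12.80 for Ldha, 6.59 and 7.25 for Egln3, 9.21 and 9.49 for Bnip3 and 10.02 and 10.27 for Ero1a. Each lay below both day 1 arrays, which is not read as a fall. The gap was small for Egln3 (7.25 against 7.27, both below the filter level) and Bnip3 (9.49 against 9.53). Adm stood at 6.76 and 6.55. The count of 12 was 3 without day 1 replicate 1, 6 without day 1 replicate 2, 2 without day 4 replicate 2 and 11 without day 4 replicate 3, with Egln1 and Bnip3l called in each.

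In MHCII- cells Slc16a3 fell by 1.53 ± 0.37 (limma adjusted p = 0.0021), Pfkl by 1.11, Slc2a1 by 1.08 ± 0.34, Egln3 by 1.07 ± 0.40 (adjusted p = 0.0472), Pkm by 1.00, Ero1a by 0.93, Pgk1 by 0.83 and Hif1a by 0.83, and Bnip3l rose by 0.93 ± 0.14. The day 4 values of Egln3 lie below the filter level, so the size of its fall is uncertain, and its call was lost in each of the 4 fits that left out 1 array (adjusted p from 0.0779 to 0.272). At day 4 Slc2a1 stood at 11.30 and 10.94, Pgk1 at 11.22 and 10.94, Hif1a at 11.99 and 11.71, Egln3 at 6.99 and 6.58 and Ero1a at 10.00 and 10.14, each below both day 1 arrays. Hk2 (8.79 and 8.85), Ldha (12.85 and 12.79), Aldoa (12.54 and 12.41) and Hilpda (8.98 and 8.98) were below both day 1 arrays without passing, which is not read as a fall. Bnip3 (9.77 and 9.78) overlapped with day 1, Pfkfb3 (10.16 and 10.27) lay above it, and Adm stood at 6.79 and 6.86. The count of 14 was 6 without day 1 replicate 1, 8 without day 1 replicate 2, 9 without day 4 replicate 1 and 6 without day 4 replicate 2, with Slc16a3, Pfkl, Pkm, Egln1 and Bnip3l called in each. No member's change differed between the subsets (limma, 1.23% called and 921 at an unadjusted p under 0.05).

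A few related genes reversed their day 1 change: Pdk2 rose by 1.27 ± 0.17 and 1.49 ± 0.17 in MHCII+ and MHCII- cells, Epas1 by 0.91 ± 0.17 and 1.40 ± 0.17, and Slc16a1 fell by 0.89 ± 0.21 and 0.88 ± 0.21. Of the 14 isoforms and transporters, 3 rose and 1 fell in MHCII+ and 4 rose and 2 fell in MHCII- cells. Of the 17 further targets, 1 rose and 4 fell in MHCII+ cells and 2 rose and 2 fell in MHCII- cells. Over all tested genes, 7.77% were called higher and 7.61% lower in MHCII+ cells, and 16.9% and 7.31% in MHCII- cells. The list counts were not tested against these shares.

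**Figure D4:**
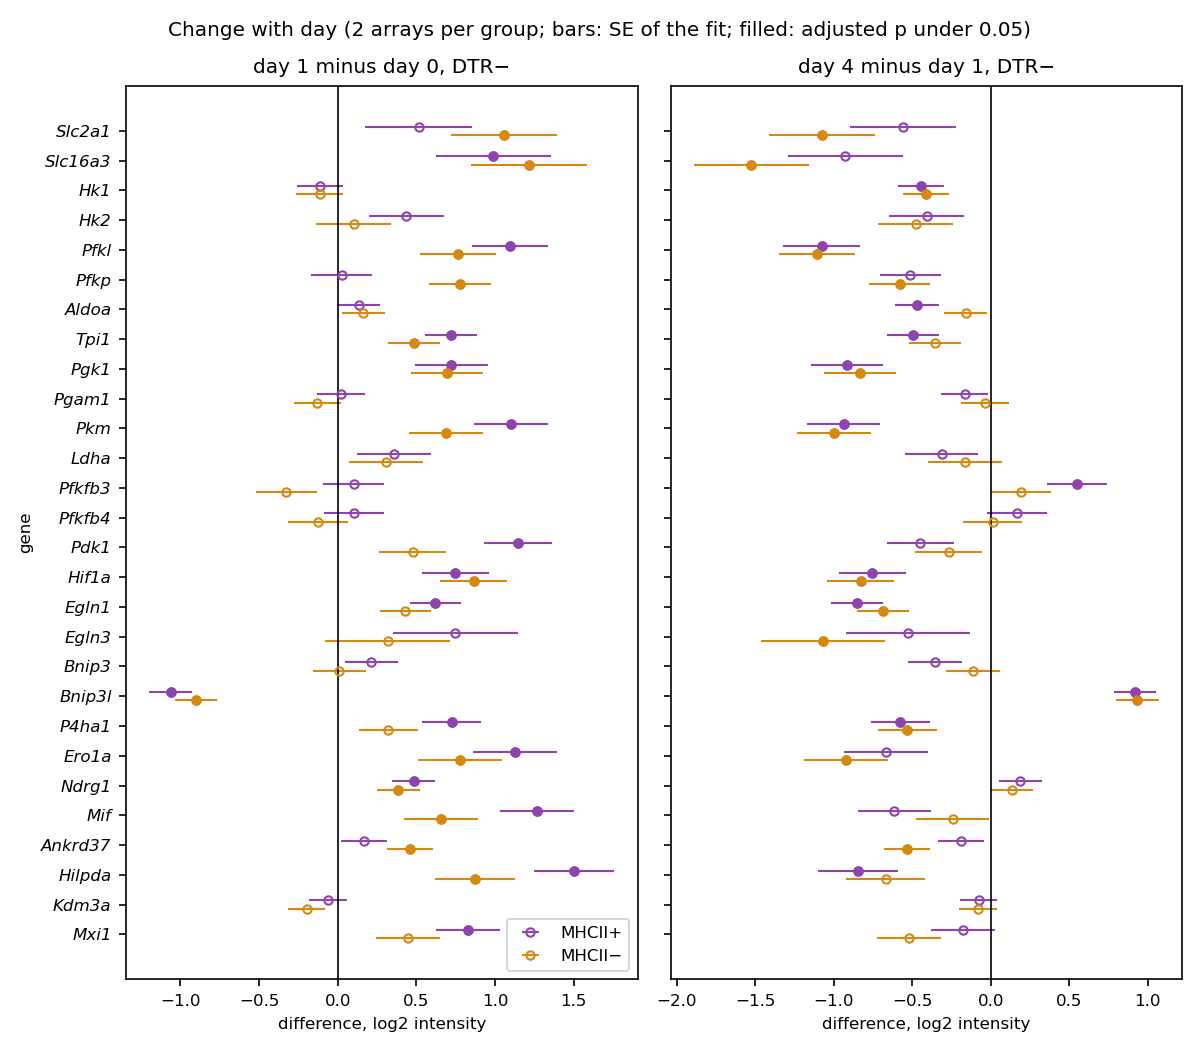
Log2 change with its SE of the tested members in DTR- cells from day 0 to day 1 and from day 1 to day 4, in MHCII+ and MHCII- cells. Of the 28 members, 25 and 22 lie above 0 in the first step and 4 and 4 in the next, and Bnip3l runs against the rest at -1.06 and -0.90, then 0.92 and 0.93.

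Later changes were few. Age was 8 weeks at both days, while the SiglecF, CD45 and DAPI gates named for day 4 and the DT label differed, and these cannot be told apart. Against day 4, the DTR- cells of the 24 h set at day 7 differed for 1 member in MHCII+ cells (2.46% of tested genes called): Ndrg1 fell by 0.78 ± 0.12 (limma adjusted p = 1.86e-04), from 10.40 and 10.32 to 9.52, 9.71, 9.35 and 9.74. The count was 2 without 24 h DTR- MHCII+ replicate 4. With no filter, Higd1a, a mitochondrial hypoxia gene whose means are all below the filter level, was called higher at day 7 (0.59, limma adjusted p = 0.0368). From day 4 to day 7 in these MHCII+ cells the skeletal muscle list went from 8.00 to 8.14 up to 8.64 to 9.35 and the monocyte list from 10.63 to 11.13 down to 9.50 to 10.10, and their part was not tested. In MHCII- cells 0 members passed (limma, 1.17% called and 1362 at an unadjusted p under 0.05), Aldoa coming nearest (0.34, adjusted p = 0.225). Pgk1 at day 7 stood at 11.12, 10.99, 10.66 and 11.07 in MHCII+ and at 11.13, 11.19 and 11.56 in MHCII- cells. Slc2a1 stood at 10.75, 10.94, 10.34 and 11.70 and at 10.90, 10.98 and 11.98, and Hif1a at 11.38, 11.59, 11.45 and 11.89 and at 11.50, 11.42 and 12.18, all overlapping with day 4.

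Untimed DTR- MHCII+ cells at day 7 were set against uninjured ones of the same age. Pfkp fell by 1.16 ± 0.20, from 10.28 and 10.51 to 9.17 and 9.29, and Ndrg1 by 0.73 ± 0.14, from 9.55 and 9.82 to 8.90 and 9.02 (8.72% of tested genes called lower and 10.4% higher). Pfkfb3 rose by 0.74 ± 0.19, from 9.79 and 9.65 to 10.50 and 10.41 (limma adjusted p = 0.00555), a call lost without day 0 replicate 2 (adjusted p = 0.0833) or untimed DTR- replicate 1 (0.0576). These 3 genes did not overlap between the groups, and the other 25 members did not pass. The shares of members called, 7.14% lower and 3.57% higher, were below those of all tested genes. From day 0 to untimed day 7 the skeletal muscle list went from 7.83 to 8.29 up to 8.96 to 9.17, the T cell list from 6.85 to 6.94 up to 7.12 to 7.31 and the macrophage list from 12.16 to 12.31 up to 12.75 to 12.75. The dendritic cell list went from 8.21 to 8.56 down to 7.13 to 7.18, and the monocyte list from 9.49 to 9.90 down to 9.26 to 9.26. The part of these lists was not tested.

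MHCII+ and MHCII- cells of DTR- mice differed in a few members. At day 0 the shares of members called, 3.57% higher and 10.7% lower, were below or about those of all tested genes. At day 0, Pfkp was higher in MHCII+ cells (8.44% called higher), at 10.28 and 10.51 against 9.22 and 9.47 (1.05 ± 0.20, limma adjusted p = 1.54e-04). Mxi1 (-1.04 ± 0.20), Pdk1 (-0.83 ± 0.21) and Pfkfb3 (-0.63 ± 0.19, adjusted p = 0.0182) were lower (10.6% called lower), Pfkfb3 standing at 9.79 and 9.65 against 10.30 and 10.40. The count of 4 was 5 without MHCII+ replicate 1, 2 without MHCII+ replicate 2, 3 without MHCII- replicate 1 and 2 without MHCII- replicate 2. The neutrophil list, at 6.51 to 6.53 in MHCII+ and 7.56 to 10.49 in MHCII- cells, moved with this comparison, as did the dendritic cell list (8.21 to 8.56 against 6.75 to 6.85), the macrophage list (12.16 to 12.31 against 12.70 to 12.78), the B cell list (6.94 to 7.64 against 6.60 to 6.68) and the eosinophil list (6.66 to 6.84 against 7.07 to 7.22), and their part was not tested. At day 1, 0 members passed (limma, 2.45% called and 882 at an unadjusted p under 0.05; Mxi1 came nearest at -0.66, adjusted p = 0.0890), and at day 4, 0 passed (limma, 2.12% called and 1035 at an unadjusted p under 0.05; Bnip3 came nearest at -0.43, adjusted p = 0.302).

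At day 7, Mxi1 (-0.69 ± 0.16, limma adjusted p = 0.00559) and Ndrg1 (-0.47 ± 0.10, limma adjusted p = 0.00523) were lower in MHCII+ cells of the 24 h set (3.19% of tested genes called lower and 2.04% higher). Ndrg1 stood at 9.52, 9.71, 9.35 and 9.74 against 10.01, 10.03 and 10.10. The count was 5 without MHCII+ replicate 4. The dendritic cell list (7.60 to 7.95 against 6.75 to 6.83) and the skeletal muscle list (8.64 to 9.35 against 8.25 to 8.44) were apart between these subsets too, and their part was not tested. With no filter, Plod2, a collagen lysyl hydroxylase whose means are all below the filter level, was 0.50 higher in MHCII+ cells (limma adjusted p = 0.00542). In the 8 h set Bnip3 was lower (2.21% called), at 9.52, 9.36 and 9.52 against 10.14, 10.06, 10.17 and 10.07 (-0.64 ± 0.13, limma adjusted p = 0.00289). The dendritic cell list, at 7.26 to 7.44 against 6.64 to 6.97, moved with it, and its part was not tested. In the 24 h set Bnip3 stood at 9.79, 9.46, 9.73 and 9.69 against 9.87, 10.04 and 10.28, lower in each array but not called. Of the genes described throughout, Slc2a1, Hk2, Pfkfb3, Aldoa, Pgk1, Ldha, Hif1a, Egln3, Ero1a and Hilpda did not pass between the subsets in any set after injury. Hilpda in the 8 h set, for instance, stood at 8.21, 8.28 and 8.88 against 8.52, 8.30, 9.21 and 8.97, which overlap.

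The remaining day 7 values of DTR- cells were close between the subsets. In the 24 h set, Hk2 stood at 8.40, 8.92, 8.57 and 9.13 in MHCII+ and at 8.73, 8.81 and 9.18 in MHCII- cells, Pfkfb3 at 9.65, 10.33, 9.75 and 10.40 and at 10.17, 10.15 and 10.14, and Aldoa at 12.63, 12.57, 12.43 and 12.69 and at 12.69, 12.74 and 13.01. Ldha stood at 12.63, 12.81, 12.41 and 12.93 and at 12.73, 12.75 and 13.03, Egln3 at 6.33, 6.45, 6.48 and 7.36 and at 6.86, 7.04 and 8.18, Ero1a at 9.39, 9.95, 9.61 and 10.10 and at 10.03, 9.81 and 10.39, Hilpda at 8.47 to 9.12 and at 8.84 to 9.43, and Adm at 6.45, 6.54, 6.85 and 6.68 and at 6.72, 6.80 and 6.44. The subsets overlapped or touched for each of these genes, and the last array given was the highest in both subsets for Hk2, Aldoa, Ldha, Egln3, Ero1a and Hilpda. In the 8 h set, Slc2a1 stood at 10.83, 10.95 and 11.43 in MHCII+ and at 10.96, 10.81, 11.73 and 11.19 in MHCII- cells, Pgk1 at 11.00, 10.89 and 11.48 and at 11.21, 10.87, 11.63 and 10.96, Hif1a at 11.26, 11.24 and 11.70 and at 11.44, 11.32, 11.91 and 11.42, and Egln3 at 6.89, 6.71 and 7.34 and at 6.97, 7.12, 8.20 and 7.08. Hk2 stood at 8.96, 8.94 and 9.12 and at 8.69, 8.74, 9.10 and 9.08, Pfkfb3 at 10.10, 10.19 and 10.13 and at 9.99, 10.10, 9.95 and 10.46, Aldoa at 12.65, 12.48 and 12.76 and at 12.71, 12.64, 12.90 and 12.43, Ldha at 12.70, 12.74 and 12.85 and at 12.86, 12.71, 13.12 and 12.76, Ero1a at 9.55, 9.49 and 9.88 and at 9.43, 9.55, 10.15 and 9.98, and Adm at 6.77, 6.82 and 6.74 and at 6.74, 7.02, 6.43 and 6.85. These too overlapped, with replicate 3 of each subset the highest for every one but Pfkfb3 and Adm.

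Within some groups a single array carried higher members. In 24 h DTR- MHCII- cells, replicate 3 averaged 10.47 over the 28 members and was the highest of its group for 22, the others averaging 10.11 to 10.12. In 8 h DTR- MHCII- cells, replicate 3 averaged 10.45 against 10.01 to 10.15 and was highest for 24, and in 8 h DTR- MHCII+ cells, replicate 3 averaged 10.24 against 9.99 to 10.01 and was also highest for 24. In 24 h DTR- MHCII+ cells, replicate 4 averaged 10.21 against 9.74 to 10.07 and was highest for 19. Some groups of 2 arrays were uneven too. Untimed DTR+ replicate 1 was the higher for 26 members, at 11.25 against 11.02. Replicate 1 was the higher for 24 in day 1 DTR- MHCII- and 22 in day 1 DTR- MHCII+ cells, and replicate 3 for 23 in day 4 MHCII+ cells. How often these arrays were highest over all tested genes was not counted. The mean over all 11074 tested genes ran only from 9.09 to 9.29. Spread of this size among control arrays of the 24 h and 8 h sets entered the standard errors of every comparison, since the fit shares 1 spread over all groups.

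**Figure D5:**
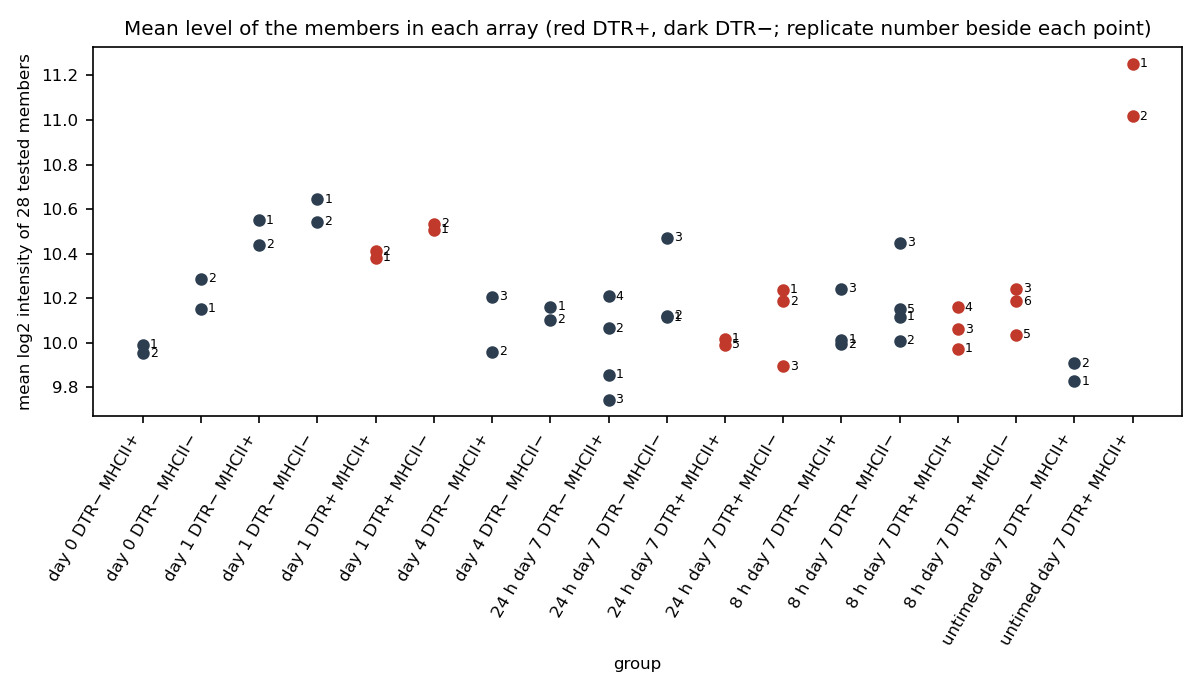
Mean log2 intensity of the 28 tested members on each of the 45 arrays by group, with replicate numbers as in the labels. The untimed DTR+ arrays lie at 11.02 and 11.25, the 8 day 1 arrays at 10.38 to 10.64, and replicate 3 or 4 stands above the rest in 4 DTR- groups of the 24 h and 8 h sets.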

How the data were processed

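RNA of sorted muscle macrophages was measured on 45 arrays. The authors deposited 1 table of intensity values on a linear scale, 1 per probe set and array, and the submitters' processing notes name Affymetrix Power Tools and RMA; versions and annotation: not given in the sources used here. Here log2 of the deposited intensity was used without further normalization. Platform annotation listed 22824 of 24922 probe sets, of which 21425 had 1 gene symbol. Per gene the probe set with the highest mean over 45 arrays was kept, and genes with a group mean at or above log2 7.57 (190 linear, the median of all values) were tested. Groups came from the titles. One limma model (3.58.1, R 4.3.3) with a mean per group (27 residual df) gave all contrasts, with Benjamini-Hochberg adjustment over 11074 genes and a threshold of 0.05, checked on simulated data. Python 3.11.15, numpy 2.4.6, pandas 2.3.3 and matplotlib 3.10.9 made tables and figures.

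Members and lists were chosen with earlier results of these data known. Up to 8 members were named per direction and comparison by size of change among those passed, the 3 smallest p where none passed between genotypes, 12 fixed members in time and subset comparisons, and up to 2 genes per direction of each other list. A few further members were named for levels after their values were seen. Alternatives were no filter, quantile normalization, the mean of probe sets, array weights, only the compared arrays, a replicate block and leaving out 1 array. The 3 differences between the untimed and other sets were added after seeing the data.

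Same-numbered arrays of 8 h DTR- MHCII+ and MHCII- cells deviated together (correlations 0.527, 0.480 and 0.583 in 3 pairs), while for the other comparisons the numbers were not shown to pair. The main fit was unpaired in every comparison, the 8 h subsets included, and the replicate block was an alternative only. Some same-numbered arrays of different genotypes correlated as highly, at 0.691 (8 h MHCII-, number 5) and 0.530 (24 h MHCII+, number 1). Such correlations therefore do not show that a number marks 1 animal.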

Additional observations from a re-analysis of the deposited data

Results flagged for a closer look

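A total of 64 checks for a single array far from the rest of its group gave 2 flags. The checks covered only the groups of 4 arrays, 24 h DTR- MHCII+ and 8 h DTR- MHCII- cells, and smaller groups were not checked. Chance flags about 1 in 20 such checks, a rate that 2 of 64 does not exceed. Egln3 stood at 7.36 in replicate 4 of 24 h DTR- MHCII+ cells, where the other arrays stood at 6.33 to 6.48. Egln3 also stood at 8.20 in replicate 3 of 8 h DTR- MHCII- cells, where the others stood at 6.97 to 7.12.

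The genotype change in MHCII+ cells differed between the untimed set and the other sets by the test of the difference itself, chosen after seeing the data. The number of members with a larger untimed change was 19 against the 24 h set, 22 against the 8 h set and 20 against day 1. For Egln3 the difference in log2 change was 3.38, 3.17 and 3.91 in that order, and for Pgk1 it was 2.38, 2.31 and 2.19. For Hilpda it was 2.16 against 24 h and 2.15 against day 1, and for Slc16a3 2.23 against 8 h. All these tests share the same 2 untimed DTR+ and 2 untimed DTR- arrays, and the untimed DTR- arrays had the lowest mean of the 18 groups for 8 members, among those at or above the filter level in all groups.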

How the results depend on the processing

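Counts of members passed are given. No called member changed sign under any alternative. Where no member was called, the median change could cross 0: for genotype in 24 h MHCII- cells it was -0.09, and 0.05 with array weights, and with 1 array left out it ran from -0.03 to 0.09 in 24 h MHCII+ and from -0.12 to 0.06 in 8 h MHCII- cells. The untimed genotype count of 23 was 23 with no filter, 24 with quantile normalization, 23 with the mean of probe sets, 28 with array weights (27 higher, 1 lower), 26 with only the compared arrays (25 higher, 1 lower, Pfkfb3 in both) and 23 with the replicate block. With array weights the counts were 5 for genotype in 24 h MHCII-, 0 in 8 h MHCII+ and 8 in 8 h MHCII- cells, 1 between subsets at day 1 and 2 at 8 h, 6 from day 4 to day 7 in MHCII- cells, 10 for untimed against day 0, and 2 for the subset difference from day 0 to day 1; 1 array (24 h DTR+ MHCII- replicate 2) took a weight of 31.16. With only the compared arrays they were 0 for genotype in 8 h MHCII+ cells, 2 between subsets at day 1 and 0 at 24 h, 22 from day 1 to day 4 in MHCII- cells, 0 from day 4 to day 7 in MHCII+ cells, 10 for untimed against day 0 and 2 for the subset difference from day 0 to day 1. Quantile normalization gave 1 between subsets at day 1 and 1 for that subset difference, and no filter gave 2 from day 4 to day 7 in MHCII+ cells. With 1 array left out, the counts were 0 to 2 for genotype in 8 h MHCII+ cells, 2 to 5 between subsets at day 0 and 2 to 5 at 24 h, 2 to 11 from day 0 to day 1 in MHCII- cells, 2 to 11 and 6 to 9 from day 1 to day 4 in MHCII+ and MHCII- cells, and 1 to 2 from day 4 to day 7 in MHCII+ cells. The cause of these changes was not tested.

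With the replicate number as a block, genotype in 8 h MHCII+ cells gave 0 members and subsets at 24 h gave 5. Subsets at 8 h, whose same-numbered arrays deviated together, kept Bnip3 as 1 call. No paired analysis was possible for genotype in 24 h MHCII+ cells, subsets at day 4 or day 4 against day 1 in MHCII+ cells, because the groups compared share fewer than 2 numbers. For the subset differences from day 1 to day 4 and in genotype at 8 h and 24 h, a block within day or genotype, added after seeing the data and resting on a single pair on 1 side, gave 0 members in each. Groups of 2 to 4 arrays, and values near background for Egln3, Ankrd37, the 4 untested members and Pdk1 in day 0 MHCII+ cells, limit precision.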
